A study of Homo sapiens with 12 samples.

Results

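The cyclins that drive the cell division cycle were followed here across BMP signaling states and *MIB1* status in a human lung cancer cell line. The members were fixed by name as *CCND1*, *CCND2* and *CCND3* (G1), *CCNE1* and *CCNE2* (G1/S), *CCNA1* and *CCNA2* (S and G2), and *CCNB1* and *CCNB2* (mitosis). Each name matched 1 Ensembl identifier of the count table through GENCODE v44, giving 9 genes of 58302 identifiers. Of the 9, 8 had enough reads to be tested and *CCND2* did not.

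RNA-seq was performed on 12 libraries of MIB1-iKO cells, 3 for each of 4 groups. These are NCIH838 cells, a line whose labelled tissue is lung, and they form 1 clonal line that carries a doxycycline-inducible Cas9 and a guide RNA against *MIB1*, an E3 ubiquitin ligase. In a first phase of 3 days, all cells received 50 nM of the BMP receptor inhibitor LDN, without doxycycline (WT) or with 0.5 µg/mL doxycycline (KO). In a second phase of 24 h, all cells received 10 ng/mL BMP4, in the continued presence of LDN (BMP-off) or in DMSO without it (BMP-on). The groups are therefore WT BMP-off, WT BMP-on, KO BMP-off and KO BMP-on, and every group carries the editing construct, was exposed to LDN first and received BMP4. Doxycycline was given to all KO cells and to no WT cells, so an effect of the drug and an effect of *MIB1* loss cannot be told apart. The BMP states differ only in whether LDN was kept, so an effect of BMP signaling and any other effect of LDN cannot be told apart. The comparisons ask how reactivated BMP signaling and *MIB1* loss bear on the transcripts of these cells.

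Cyclins are the regulatory subunits that switch on cyclin-dependent kinases (CDKs), and most of them are made and destroyed once in each cell cycle. D-type cyclins join CDK4 and CDK6 in G1 and are induced by growth signals. E-type cyclins join CDK2 at the start of DNA replication, A-type cyclins act with CDK2 and CDK1 through S phase and G2, and B-type cyclins act with CDK1 to bring cells into mitosis. Transcripts of the A-type and B-type cyclins peak late in the cycle, in part through the DREAM complex and the MuvB, B-MYB and FOXM1 proteins, which act at promoter elements called CHR (cell cycle genes homology region) and at CCAAT boxes bound by NF-Y. BMP ligands of the TGF-β family signal through receptor kinases and SMAD1, SMAD5 and SMAD9, and restrain proliferation in many epithelial cells. In bulk RNA, fewer cells in a phase of the cycle and less RNA per cell cannot be told apart.

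Promoter windows are shown for the members whose transcripts moved together (*CCNA1*, *CCNA2*, *CCNB1* and *CCNB2*) and for *CCNE1*, which did not move with them. Each is the 250 bases before the RefSeq transcript start in GRCh38.p14, written 5′ to 3′ on the strand of the gene, with the letters searched in capitals. The CHR was searched on either strand in 4 spellings, which are TTTGAA, the first spelling, and TTTAAA, the second, with CTTGAA as the third and TTCGAA as the last. The CCAAT box was searched on either strand by its name, so that ATTGG marks one on the other strand. These letters do not overlap one another in the 5 windows.
CCNE1, chr19:29811741-29811990, plus strand: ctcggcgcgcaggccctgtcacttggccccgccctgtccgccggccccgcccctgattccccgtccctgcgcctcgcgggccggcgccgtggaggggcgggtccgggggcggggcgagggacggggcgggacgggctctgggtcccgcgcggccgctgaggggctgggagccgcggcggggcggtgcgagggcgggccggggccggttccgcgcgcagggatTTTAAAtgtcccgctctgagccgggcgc
CCNA1, chr13:36431705-36431954, plus strand: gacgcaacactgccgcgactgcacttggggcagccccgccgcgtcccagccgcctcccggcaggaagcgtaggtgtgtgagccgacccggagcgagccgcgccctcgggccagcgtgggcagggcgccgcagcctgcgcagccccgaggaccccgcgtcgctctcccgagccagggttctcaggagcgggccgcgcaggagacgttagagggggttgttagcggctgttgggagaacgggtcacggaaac
CCNA2, chr4:121823884-121824133, minus strand: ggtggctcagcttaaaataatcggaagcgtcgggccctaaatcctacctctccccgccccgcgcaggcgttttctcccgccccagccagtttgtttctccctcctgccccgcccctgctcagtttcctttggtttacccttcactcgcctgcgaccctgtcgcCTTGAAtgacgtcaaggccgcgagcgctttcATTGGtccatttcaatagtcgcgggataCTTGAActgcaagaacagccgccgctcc
CCNB1, chr5:69166900-69167149, plus strand: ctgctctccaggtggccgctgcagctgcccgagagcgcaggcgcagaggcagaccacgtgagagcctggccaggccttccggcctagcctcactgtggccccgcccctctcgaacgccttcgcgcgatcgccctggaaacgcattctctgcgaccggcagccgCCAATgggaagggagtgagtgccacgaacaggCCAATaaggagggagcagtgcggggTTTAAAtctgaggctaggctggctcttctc
CCNB2, chr15:59104896-59105145, plus strand: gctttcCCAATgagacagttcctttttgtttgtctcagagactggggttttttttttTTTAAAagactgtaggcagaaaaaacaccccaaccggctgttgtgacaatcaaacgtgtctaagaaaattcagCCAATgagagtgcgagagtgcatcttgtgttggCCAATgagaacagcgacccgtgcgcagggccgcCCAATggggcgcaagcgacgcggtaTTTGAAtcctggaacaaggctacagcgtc

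The window of *CCNA1* held neither a CHR match nor a CCAAT box. It lies inside *CCNA1* as placed by GENCODE v44, which starts the gene at base 36431520, so the bases before that start were not searched. The other 4 windows held a CHR match within 30 bases of the start, at -28 in *CCNE1* and *CCNA2*, -30 in *CCNB1* and -29 in *CCNB2*, counted from the first base of the match. A CCAAT box stood close before it in *CCNA2* (at -56), *CCNB1* (at -55) and *CCNB2* (at -54), and *CCNB1* and *CCNB2* each held another at -87. *CCNB2* had 4 CCAAT boxes in all, *CCNB1* 2, *CCNA2* 1 and *CCNE1* 0. *CCNA2* and *CCNB2* each had a further CHR match, at -87 and -193.

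Of all 35116 windows in the RefSeq table, 29.1% held a CHR match and 32.0% a CCAAT box, so either alone is common. A CHR match starting at -30 to -28 together with a CCAAT box starting at -56 to -54 was held by 0.0199% of windows, 7 in number, where these positions were chosen after the windows were seen. *CCNA1* moved with *CCNA2*, *CCNB1* and *CCNB2* without these letters in the window searched, and *CCNE1* held a CHR match without moving with them. Whether these letters bear on the transcript changes was not tested. *CCND3* had 3 windows with no CHR match and 1 CCAAT box in each of 2 of them. None of the windows of these 6 genes held an E2F site searched as TTTCCCGC, TTTGGCGC, TTTCGCGC or TTTGCCGC on either strand, letters that 2.79% of all windows hold. No window was available for *CCND1*, *CCND2* and *CCNE2*, so these were not searched. A match is a description of letters and no evidence of binding.

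**Figure D1:**
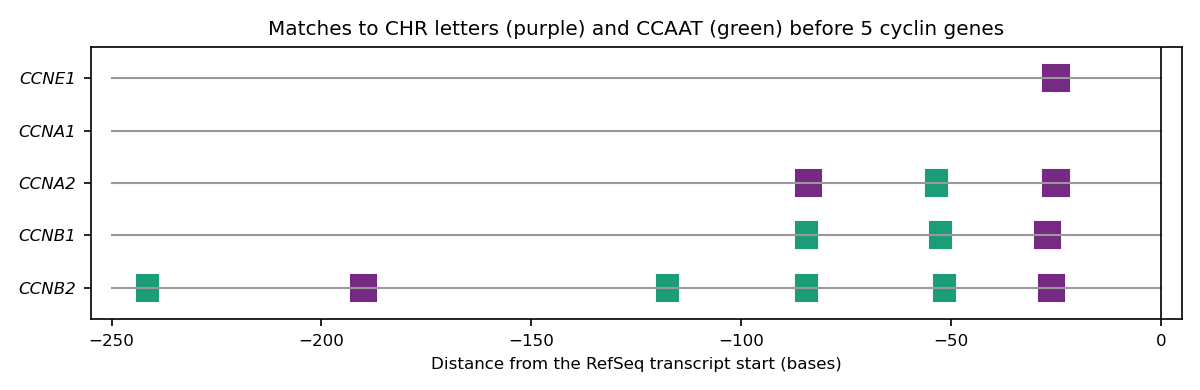
Positions of CHR matches (purple) and CCAAT boxes (green) in the 250 bases before the transcript start of 5 cyclin genes, with distance from the start in bases on the x axis and 1 line per gene. The CHR match nearest the start lies at -30 to -28 in *CCNE1*, *CCNA2*, *CCNB1* and *CCNB2*, a CCAAT box lies at -56 to -54 in *CCNA2*, *CCNB1* and *CCNB2*, and *CCNA1* has neither.

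Total counts per library ranged from 19124010 to 29498000. *MIB1* transcripts lay at 144 to 176 CPM (counts scaled to sequencing depth by the TMM method) in the WT libraries. They lay at 31.0 to 34.4 CPM in the KO libraries, so every library matched its label as WT or KO. These levels do not check the BMP-off and BMP-on labels. The epithelial markers *EPCAM*, *CDH1*, *KRT8* and *KRT18* were present at an RPKM (reads per kilobase of gene model, scaled to sequencing depth) of 1 or more, 4 of 5 markers in each group with *KRT19* below. All 6 lung epithelial markers, among them *NKX2-1* and the surfactant genes, were below 1 RPKM in every group, as were all leukocyte and endothelial markers, and 1 of 5 fibroblast markers (*COL1A1*) was above it. The summed fibroblast markers were at 4.96 to 6.87 RPKM with BMP-on and 2.18 to 3.76 RPKM with BMP-off, and their part in the results was not tested. Deviations of genes from their group mean followed GC content in some libraries, with a Spearman rho across genes from -0.60 in KO BMP-off replicate 2 to 0.59 in KO BMP-off replicate 3. Nothing in the labels says that the replicates came from separate cultures, so p values measure the spread between these libraries, which may be technical.

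Compared per length, *CCNB1* was the most abundant cyclin transcript, with a mean of 198 RPKM over the 12 libraries (range 157 to 231). *CCNA2* followed at 109 RPKM (86.4 to 130) and *CCND1* at 80.5 RPKM (69.0 to 95.7), and the ranges of *CCNA2* and *CCND1* overlapped while that of *CCNB1* lay above both. *CCNB2* was at 41.2 RPKM (32.3 to 47.4), *CCND3* at 20.6 RPKM (18.7 to 23.5) and *CCNE1* at 11.8 RPKM (10.2 to 13.2), with no overlap between any neighbours from *CCND1* down to *CCNE2*. *CCNE2* was at 3.02 RPKM (2.45 to 4.19) and *CCNA1* at 1.60 RPKM (0.589 to 2.56), and these ranges overlapped.

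In *MIB1* KO cells, *CCNE2* and the S-phase and mitotic cyclins were lower and *CCND1* was higher with BMP signaling on than off. The BMP response of KO cells took *CCNA2* down by 26.5%, *CCNB1* by 20.3% and *CCNB2* by 23.6%, and *CCND1* up by 20.1%. In WT cells the same transcripts differed by -9.63% (*CCNA2*, which did not pass the test), -10.2%, -11.0% and 20.0%. With BMP-on, KO cells had 18.3% less *CCNA2*, 18.8% less *CCNB1* and 18.4% less *CCNB2* than WT cells, while neither D-type nor E-type cyclins passed the test.

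Genes were tested with the edgeR quasi-likelihood test on counts, and the threshold for passing was 0.05 for the p value adjusted by Benjamini-Hochberg over 17188 genes tested. In the BMP response of WT cells, 1 of 8 cyclins tested was higher and 3 were lower, where 1.91% of all genes tested were higher and 2.01% lower. In the BMP response of KO cells, 1 cyclin was higher and 5 were lower, against 11.1% and 10.9% of all genes. Between KO and WT cells with BMP-on, 0 cyclins were higher and 4 were lower, against 1.32% and 2.34% of all genes. At an unadjusted p under 0.05, edgeR had 1 cyclin higher there, as were 6.17% of all genes. At an adjusted p of at most 0.05, DESeq2 and limma-voom each called 0 higher.

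Between KO and WT cells with BMP-off, no cyclin passed in either direction, where 0.00582% of all genes were higher and 0.0349% lower. At an unadjusted p under 0.05, edgeR had 1 of 8 cyclins higher and 2 lower in that comparison, where 4.62% of all genes were higher and 5.59% lower. At an adjusted p of at most 0.05, DESeq2 and limma-voom each called 0 in either direction there. The interaction, which is the BMP response of KO cells minus that of WT cells, also had 0 cyclins passing in edgeR, where 0.0407% of genes had a higher and 0.0524% a lower response. At an unadjusted p under 0.05, the interaction had 0 of 8 cyclins higher and 4 lower in edgeR, where 4.65% of all genes were higher and 5.91% lower. At an adjusted p of at most 0.05, DESeq2 called 1 lower in the interaction while limma-voom called 0. Only *CCNA1* in the BMP response of KO cells both passed and reached 1 in the size of its log2 fold change. Both were met by 0.425% of all genes in the WT response and 1.66% in the KO response. In KO against WT cells the shares were 0.14% (BMP-on) and 0.0116% (BMP-off), and in the interaction 0%. The 2 BMP responses share no library, but each comparison of KO with WT shares its libraries with them.

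**Figure D2:**
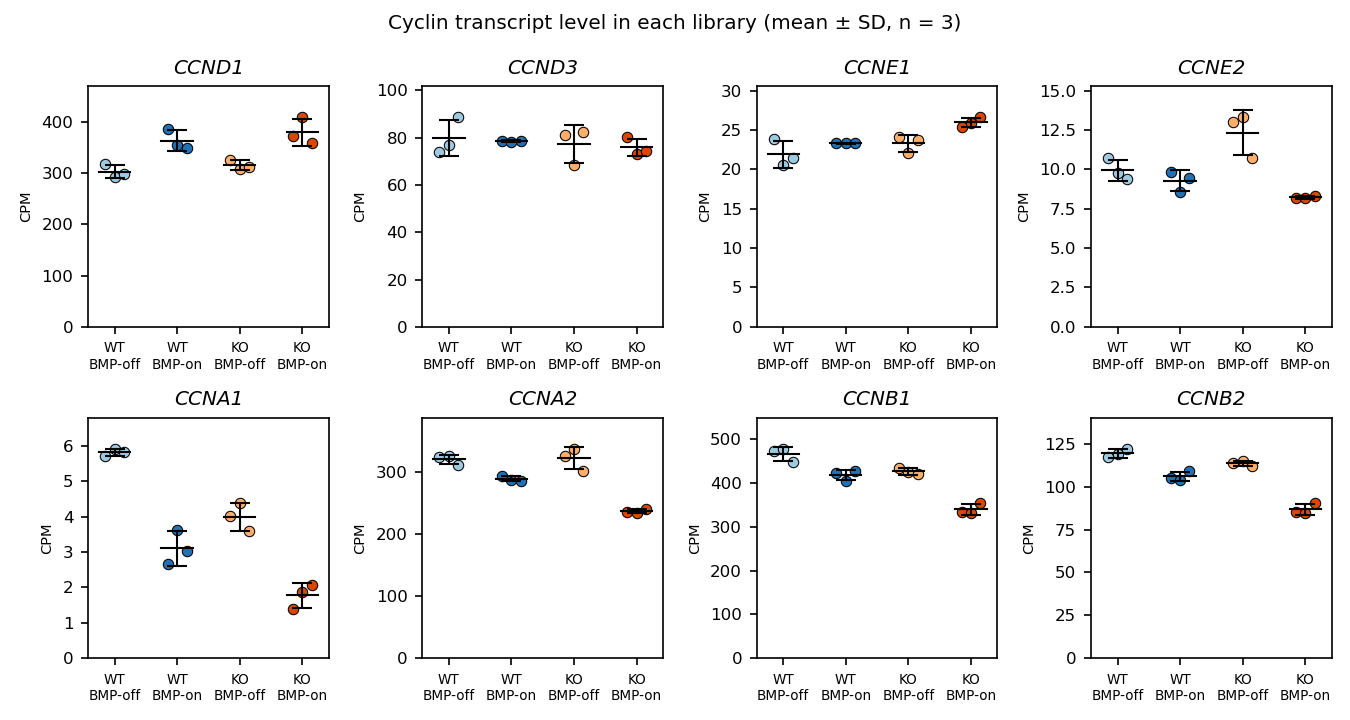
Levels of the 8 tested cyclins in CPM (y axis, from 0) in each library of the 4 groups, with 1 point per library and the mean ± SD (n = 3) in black. *CCNA2*, *CCNB1* and *CCNB2* are lowest in the 3 KO BMP-on libraries, *CCND1* is higher in both BMP-on groups, and *CCND3* overlaps between all groups.

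*CCND1* encodes cyclin D1, the D-type cyclin that is most often induced by mitogens (chromosome 11, 69641156-69654474, plus strand, GRCh38). Its levels were 318, 293 and 298 CPM in WT BMP-off, 387, 355 and 349 CPM in WT BMP-on, 326, 309 and 313 CPM in KO BMP-off, and 372, 409 and 359 CPM in KO BMP-on. All BMP-on libraries were higher than all BMP-off libraries, and WT and KO libraries overlapped within each BMP state. The share of all genes whose libraries separate by group was not counted, here or for the cyclins below. The log2 fold change of the BMP response was 0.26 in WT cells (SE 0.054, edgeR adjusted p = 0.00929) and 0.26 in KO cells (SE 0.054, edgeR adjusted p = 0.00249). The difference of these responses was 0.00 with a 95% interval of -0.16 to 0.16. KO and WT cells differed by a log2 fold change of 0.06 with BMP-on (95% interval -0.05 to 0.18, edgeR adjusted p = 0.705). The WT response no longer passed without WT BMP-off replicate 2 (edgeR adjusted p = 0.056), without WT BMP-off replicate 3 (0.0584) or without WT BMP-on replicate 1 (0.0961), at log2 fold changes of 0.24, 0.25 and 0.22. *LTO1*, which shares 497 exon bases with *CCND1* on the other strand, did not pass the test in either response, at log2 fold changes of 0.01 in WT and 0.07 in KO cells.

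*CCND3* encodes cyclin D3, a partner of CDK4 and CDK6 with roles in several differentiating tissues (chromosome 6, 41934934-42050357, minus strand). Its mean level was 79.9 ± 7.77 CPM in WT BMP-off, 78.5 ± 0.442 CPM in WT BMP-on, 77.3 ± 7.82 CPM in KO BMP-off and 76.0 ± 3.72 CPM in KO BMP-on (SD, n = 3), and the groups overlapped in every comparison. Its log2 fold changes were -0.02 in the WT response (95% interval -0.18 to 0.14) and -0.03 in the KO response (-0.18 to 0.13). Neither passed the test, with edgeR adjusted p values of 0.921 and 0.845. With a correction for GC content the KO response was -0.17 and passed (edgeR adjusted p = 0.00956).

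*CCND2* encodes cyclin D2, the D-type cyclin of many blood, gonadal and neural cells (chromosome 12, 4269771-4305353, plus strand). It had 0 counts in 11 libraries and 1 count in WT BMP-on replicate 1. A count of 0 allows a level of up to 0.102 to 0.157 CPM depending on the library, taken as 3 counts of its total and covering counting error only. *CCND2* was at or under this floor in the 11 libraries with 0 counts. The library with 1 count was at 0.0422 CPM, and an upper limit was not computed for it. No fold was formed. Of the D-type cyclins, *CCND1* therefore made up most of the transcripts, at 3.01 to 4.99 times the RPKM of *CCND3*.

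*CCNE1* encodes cyclin E1, which with CDK2 promotes entry into S phase (chromosome 19, 29811991-29824312, plus strand). Its levels were 23.8, 20.5 and 21.4 CPM in WT BMP-off, 23.3, 23.4 and 23.3 CPM in WT BMP-on, 24.1, 22.1 and 23.7 CPM in KO BMP-off, and 25.4, 25.9 and 26.6 CPM in KO BMP-on. The 3 KO BMP-on libraries were above all the others. Neither comparison that sets them apart passed the test over all genes, with a log2 fold change of 0.15 in the KO response (95% interval 0.01 to 0.30, edgeR adjusted p = 0.112) and 0.16 in KO against WT with BMP-on (0.01 to 0.30, edgeR adjusted p = 0.304).

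*CCNE2* encodes cyclin E2, the paralog of cyclin E1 with the same CDK partner (chromosome 8, 94879770-94896678, minus strand). Its levels were 10.7, 9.74 and 9.37 CPM in WT BMP-off, 9.83, 8.55 and 9.45 CPM in WT BMP-on, 13.0, 13.3 and 10.7 CPM in KO BMP-off, and 8.20, 8.15 and 8.31 CPM in KO BMP-on. The KO BMP-on libraries were the lowest, and KO BMP-off ranged from the level of the highest WT BMP-off library upward. The KO response was a log2 fold change of -0.59 (SE 0.10, edgeR adjusted p = 0.000531) and the WT response -0.11 (SE 0.10, edgeR adjusted p = 0.681). The difference of the responses was -0.48 with a 95% interval of -0.78 to -0.18 and did not pass over all genes (edgeR adjusted p = 0.222), except without KO BMP-off replicate 3 (-0.58, edgeR adjusted p = 0.0424). KO cells with BMP-off stood at 0.31 relative to WT (SE 0.098, edgeR adjusted p = 0.366).

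The E-type pair thus differed in direction in the KO response, where *CCNE1* had a positive and *CCNE2* a negative value, although only *CCNE2* passed. In RPKM, *CCNE1* was 2.74 to 3.66 times *CCNE2* in the KO BMP-off libraries and 5.12 to 5.28 times in the KO BMP-on libraries. In WT cells this ratio was 3.47 to 3.78 with BMP-off and 3.91 to 4.52 with BMP-on. *CCNE2* shares up to 1629 exon bases with a single gene on the other strand, and which gene this is was not recorded. Of the genes that overlap *CCNE2* there, *INTS8* had log2 fold changes of 0.01 and -0.03 in the WT and KO responses. *NDUFAF6* had -0.06 and -0.20, and neither gene passed the test.

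*CCNA2* encodes cyclin A2, the A-type cyclin of dividing somatic cells (chromosome 4, 121816444-121823883, minus strand), and its promoter letters are printed above. Its levels were 325, 326 and 312 CPM in WT BMP-off, 295, 288 and 287 CPM in WT BMP-on, 327, 338 and 303 CPM in KO BMP-off, and 236, 235 and 241 CPM in KO BMP-on. All BMP-on libraries were below all BMP-off libraries, the KO BMP-on libraries were below the WT BMP-on libraries, and WT and KO overlapped with BMP-off.

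The *CCNA2* log2 fold change was -0.44 in the KO response (SE 0.044, edgeR adjusted p = 2.58e-06) and -0.29 in KO against WT with BMP-on (SE 0.044, edgeR adjusted p = 0.00121). In the WT response it was -0.15 (SE 0.044) and did not pass (edgeR adjusted p = 0.0808), although it did in 4 of 19 alternatives. With BMP-off, KO and WT cells differed by 0.01 (95% interval -0.09 to 0.10). The difference of the responses was -0.30 (95% interval -0.43 to -0.17, edgeR adjusted p = 0.0722), the smallest adjusted p of the cyclins in the interaction. It passed in DESeq2 (adjusted p = 0.0112), without the filter on low counts (edgeR adjusted p = 0.00724), with a GC correction (0.00638), without WT BMP-off replicate 1 (0.0355) and without KO BMP-off replicate 3 (0.0125), out of 18 alternatives. *EXOSC9*, which shares 254 exon bases with *CCNA2* on the other strand, had a log2 fold change of -0.32 in the KO response (edgeR adjusted p = 0.000499) and -0.07 in KO against WT with BMP-on (0.653). Whether reads were counted by strand is not given in the sources used here, so the part of *EXOSC9* reads in *CCNA2* was not tested.

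*CCNA1* encodes cyclin A1, which is best known from the testis and some leukemias (chromosome 13, 36431520-36442870, plus strand). It was the least abundant cyclin tested, at 36 to 159 counts per library. Its levels were 5.71, 5.91 and 5.82 CPM in WT BMP-off, 2.66, 3.63 and 3.02 CPM in WT BMP-on, 4.01, 4.38 and 3.58 CPM in KO BMP-off, and 1.38, 1.88 and 2.06 CPM in KO BMP-on. The groups did not overlap in either BMP response or between KO and WT cells in either BMP state. WT BMP-on (2.66 to 3.63 CPM) and KO BMP-off (3.58 to 4.38 CPM) did overlap. WT BMP-off was highest and KO BMP-on lowest.

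The *CCNA1* log2 fold change was -0.90 in the WT response (SE 0.14, edgeR adjusted p = 0.00116), -1.18 in the KO response (SE 0.16, edgeR adjusted p = 8.59e-05) and -0.82 in KO against WT with BMP-on (SE 0.17, edgeR adjusted p = 0.00982). These were the largest changes in size of any cyclin in each comparison. The KO against WT value with BMP-on no longer passed without WT BMP-on replicate 2 (-0.69, edgeR adjusted p = 0.0712) or without KO BMP-on replicate 1 (-0.66, edgeR adjusted p = 0.0754). With BMP-off the KO cells stood at -0.54 relative to WT (SE 0.14), which did not pass over all genes (edgeR adjusted p = 0.285), and the difference of the responses was -0.28 with a wide 95% interval of -0.74 to 0.18.

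*CCNB1* encodes cyclin B1, the main CDK1 partner at mitotic entry (chromosome 5, 69167135-69178245, plus strand). Its levels were 473, 477 and 447 CPM in WT BMP-off, 423, 405 and 426 CPM in WT BMP-on, 434, 425 and 419 CPM in KO BMP-off, and 333, 332 and 353 CPM in KO BMP-on. The groups did not overlap in either BMP response or between KO and WT cells in either BMP state. WT BMP-on (405 to 426 CPM) and KO BMP-off (419 to 434 CPM) did overlap. The KO BMP-on libraries stood furthest below the rest. The log2 fold change was -0.33 in the KO response (SE 0.042, edgeR adjusted p = 3.41e-05) and -0.30 in KO against WT with BMP-on (SE 0.042, edgeR adjusted p = 0.000628). With BMP-off, KO cells stood at -0.13 relative to WT (95% interval -0.22 to -0.04, edgeR adjusted p = 0.366), a value that passed with a GC correction (-0.17, edgeR adjusted p = 0.0247).

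*CCNB2* encodes cyclin B2, a B-type cyclin found largely at the Golgi (chromosome 15, 59105126-59125045, plus strand). Its levels were 117, 119 and 122 CPM in WT BMP-off, 105, 104 and 109 CPM in WT BMP-on, 114, 115 and 112 CPM in KO BMP-off, and 85, 84.8 and 90.5 CPM in KO BMP-on. As with *CCNB1*, the groups did not overlap in either BMP response or between KO and WT cells in either BMP state. KO BMP-on was lowest. Such separation was not counted over all genes. The log2 fold change was -0.39 in the KO response (SE 0.045, edgeR adjusted p = 1.34e-05), -0.29 in KO against WT with BMP-on (SE 0.045, edgeR adjusted p = 0.00132) and -0.07 with BMP-off (95% interval -0.17 to 0.02, edgeR adjusted p = 0.584).

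The WT responses of the B-type cyclins were smaller and lay close to the threshold. They were -0.16 for *CCNB1* (SE 0.042) and -0.17 for *CCNB2* (SE 0.045), each with an edgeR adjusted p of 0.0464. *CCNB1* no longer passed in 12 of 19 alternatives and *CCNB2* in 13 of 19, with adjusted p values up to 0.255 and 0.211, and leaving out any 1 of the 6 WT libraries ended both calls. The difference between KO and WT responses was -0.17 for *CCNB1* (95% interval -0.30 to -0.05, edgeR adjusted p = 0.314) and -0.22 for *CCNB2* (-0.36 to -0.09, edgeR adjusted p = 0.209), so a larger KO response was not established over all genes. The ratio of *CCNB1* to *CCNB2* in RPKM was 4.55 to 5.03 over all 12 libraries. It was 4.6 to 4.71 in KO BMP-off, below the 4.85 to 4.87 of KO BMP-on and the 4.83 to 5.0 of WT BMP-on, and WT BMP-off spanned 4.55 to 5.03.

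**Figure D3:**
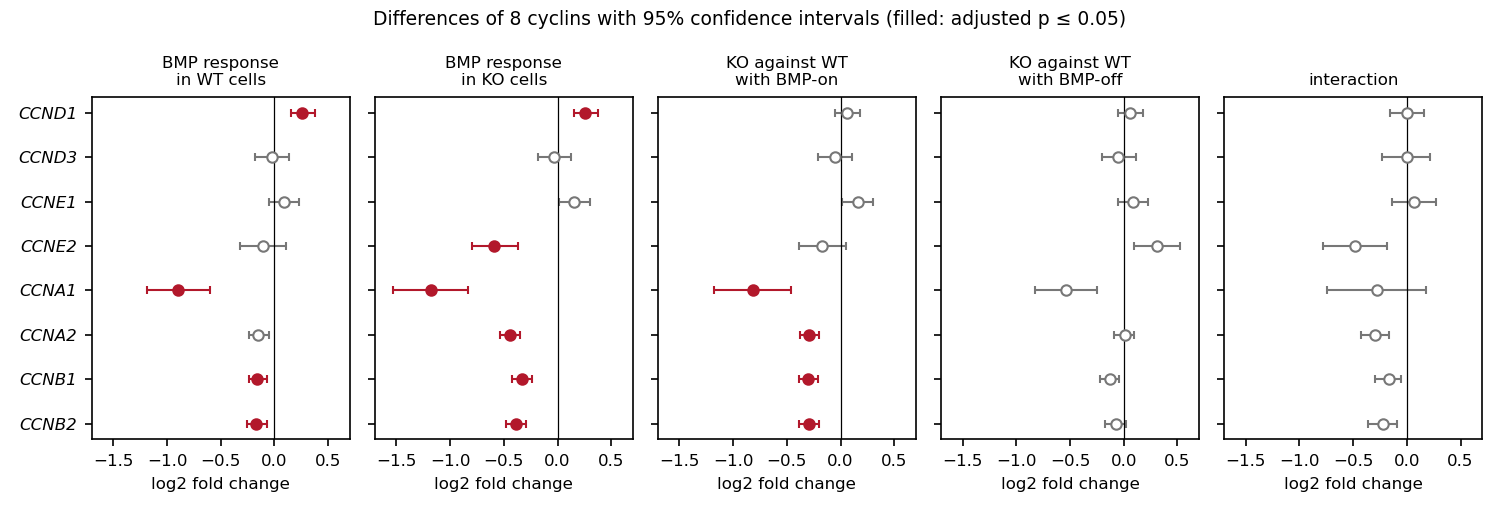
Log2 fold change (x axis) of 8 cyclins (y axis) in 5 panels, 1 per comparison, with 95% confidence intervals from the edgeR fit and filled red points where the adjusted p is at most 0.05. *CCND1* lies at 0.26 in both BMP responses, *CCNA2*, *CCNB1* and *CCNB2* lie between -0.29 and -0.30 in KO against WT with BMP-on, and no point is filled with BMP-off or in the interaction.

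The spread within groups was small for the late cyclins. Pooled over the 4 groups, the SD of log2 CPM within groups was 0.047 for *CCNA2*, 0.042 for *CCNB1* and 0.038 for *CCNB2*. It was 0.196 for *CCNA1*, the least abundant, and between 0.066 and 0.113 for the other 4. The median over all genes tested was 0.128. That median covers genes of any level, and genes of like abundance were not compared.

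As shares of the summed RPKM of the 9 cyclins, the balance of the classes was described per library. The G1 class made up 18.6% ± 0.72 of the sum in WT BMP-off, 22.6% ± 0.742 in WT BMP-on, 19.8% ± 0.785 in KO BMP-off and 26.7% ± 1.5 in KO BMP-on (SD, n = 3). The mitotic class made up 54.1% ± 0.626, 51.2% ± 0.889, 51.7% ± 0.352 and 47.8% ± 1.29 in the same order. All BMP-on libraries had a higher G1 share than all BMP-off libraries, and the KO BMP-on libraries had the highest G1 and the lowest mitotic share.

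The S and G2 class fell between 24.3% and 26.5% with BMP-off, between 22.9% and 23.5% in WT BMP-on and between 21.4% and 21.8% in KO BMP-on. The G1/S class was small, from 2.63% to 3.81%. *CCND1* was 0.570 to 0.656 times *CCNA2* in RPKM with BMP-off, 0.772 to 0.833 times with BMP-on in WT cells and 0.948 to 1.11 times with BMP-on in KO cells, so the levels of these transcripts were about equal in the last group only. Reads of all 9 cyclins took 0.116% to 0.118% of the counts in KO BMP-on and 0.126% to 0.133% in the other groups. Since shares sum to a fixed total, a higher share of one class lowers the others.

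**Figure D4:**
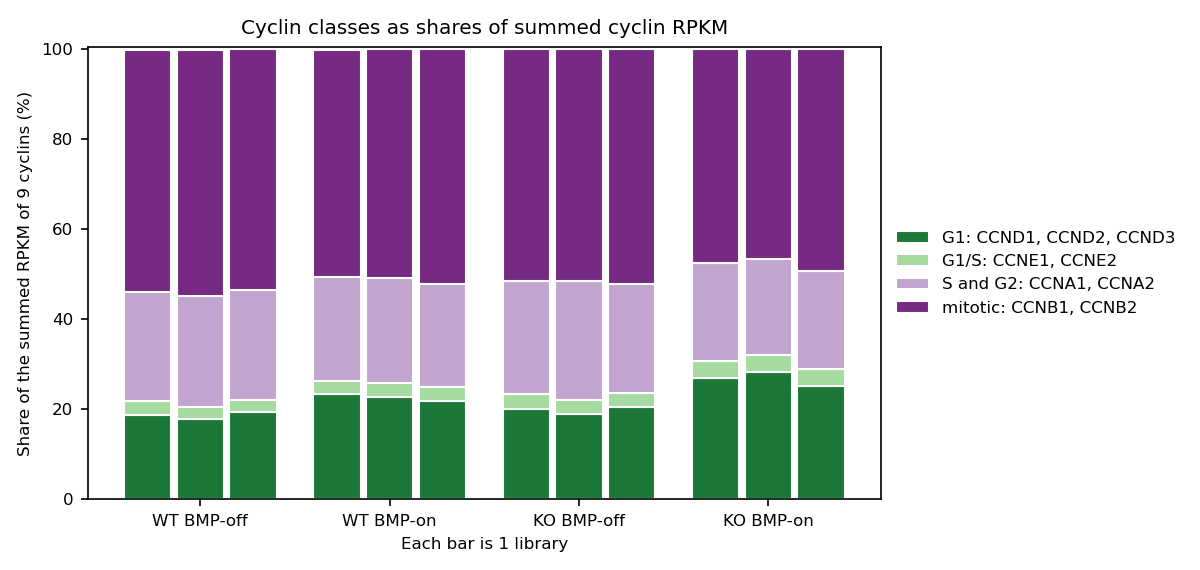
Share of the summed RPKM of 9 cyclins (y axis, in percent) taken by the G1, G1/S, S and G2, and mitotic classes, with 1 stacked bar per library and 3 libraries per group. The G1 share is 17.8% to 20.4% in the 6 BMP-off libraries, 21.8% to 23.3% in WT BMP-on and 25.2% to 28.2% in KO BMP-on.

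Across the 12 libraries, log2 CPM of *CCNA2*, *CCNB1* and *CCNB2* ran together with Pearson's r of 0.94 to 0.97, and *CCNA1* joined them at 0.91 to 0.95. *CCND1* ran opposite to these 4, at -0.77 to -0.85, as did *CCNE1* at -0.79 to -0.83. *CCNE2* was nearer to *CCNA2* (0.82) than to *CCNE1* (-0.40), and *CCND3* followed none of them, at -0.20 to 0.23. These values are descriptions over 4 groups of 3 libraries, so differences between groups enter them. After each group mean was removed, the block held less closely, and r was 0.85 between *CCNE2* and *CCNA2*, 0.53 between *CCNA2* and *CCNB1*, 0.43 between *CCNB1* and *CCNB2*, and 0.06 between *CCND1* and *CCNA2*. It was 0.20 between *CCNA2* and *CCNB2*, between 0.10 and 0.37 for *CCNA1* with the other 3 of its block, and -0.72 between *CCND3* and *CCNA2*. For *CCND1* it was -0.58 with *CCNB2*, -0.23 with *CCNA1* and -0.12 with *CCNB1*. For *CCNE1* it lay between -0.16 and 0.21 with *CCNA1*, *CCNA2*, *CCNB1* and *CCNB2*. All genes of a library share its depth and its GC trend.

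**Figure D5:**
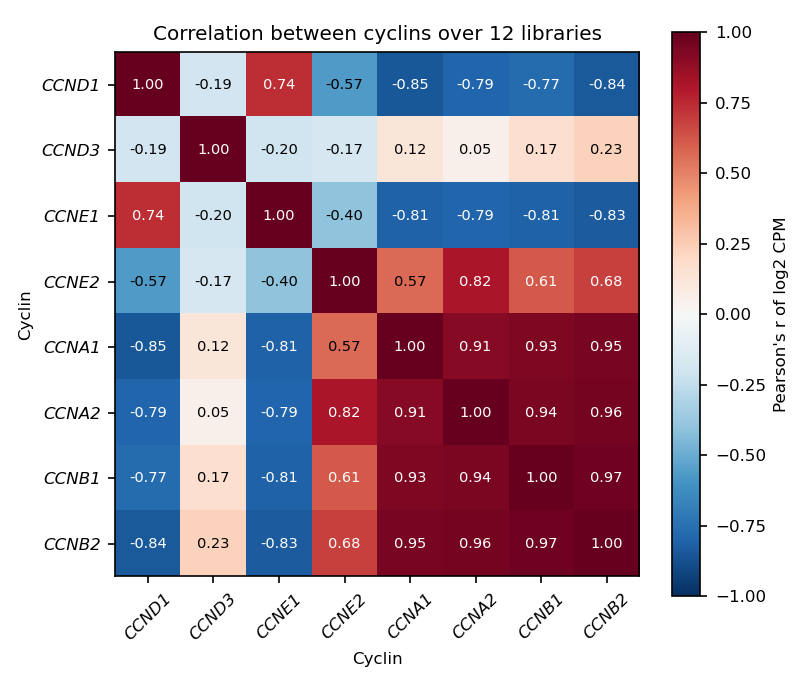
Pearson's r of log2 CPM between each pair of 8 cyclins over 12 libraries, from -1 (blue) to 1 (red), with the value in each cell. *CCNA1*, *CCNA2*, *CCNB1* and *CCNB2* form a block from 0.91 to 0.97, and *CCND1* and *CCNE1* have negative values with all 4.

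By the same measure, the genes most like each cyclin were named among the tested genes with a mean of at least 10 CPM. For *CCNA2* these were *MCM6* (r = 0.993), which encodes a subunit of the replicative helicase, *NDC80* (0.992), a kinetochore subunit, and *RACGAP1* (0.991), which acts in cytokinesis. *CCNB2* was most like *TFPI2* (0.988), *CDCA7* (0.987) and the spindle checkpoint kinase *BUB1* (0.986), and *CCNB1* most like *TFPI2* (0.981), *TES* (0.981) and *HMMR* (0.979). *CCND1* was most like *VCP* (0.977), *TRIB1* (0.970) and *MFHAS1* (0.969). *CCNE1* was most like *BCL2L13* (0.939), *FOXN3* (0.929) and *NBR1* (0.917), *CCNE2* most like *RBPJ* (0.967), *CDC23* (0.964) and *NAMPT* (0.961), *CCNA1* most like *EMP2* (0.978), *PDGFC* (0.974) and *LGR4* (0.974), and *CCND3* most like *NTN1* (0.925), *AGPAT3* (0.894) and *CSNK2B* (0.892). All are values over 12 libraries.

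Of the kinases that cyclins activate, *CDK1* and *CDK2* were lower in the KO response while *CDK4* and *CDK6* did not pass the test. *CDK1*, the mitotic kinase, was at 255 ± 12.5 CPM in WT BMP-off, 214 ± 4.21 in WT BMP-on, 250 ± 14.1 in KO BMP-off and 177 ± 5.87 in KO BMP-on (SD, n = 3). Its log2 fold change was -0.26 in the WT response (edgeR adjusted p = 0.00623), -0.50 in the KO response (2.77e-06) and -0.27 in KO against WT with BMP-on (0.00418). *CDK2* changed by -0.37 in the KO response (edgeR adjusted p = 1.07e-05) and -0.19 in KO against WT with BMP-on (0.0179), and was at -0.15 in the WT response (0.0505).

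Among the G1 kinases, *CDK4* was at -0.06, -0.03 and -0.02 in these 3 comparisons and *CDK6* at 0.23, 0.05 and 0.03, with edgeR adjusted p values from 0.275 to 0.947. Of 11 cyclin-dependent kinases and their activators, 2 were lower in the WT response, 6 in the KO response and 4 in KO against WT with BMP-on, and 0 were higher, with median log2 fold changes of -0.11, -0.26 and -0.18 where the median of all genes was 0.002, 0.006 and 0.002. The lower genes were 18.2%, 54.5% and 36.4% of the list, against 2.01%, 10.9% and 2.34% of all genes. Of all genes, 1.91%, 11.1% and 1.32% were higher. *CDC25B*, a phosphatase that activates CDK1, was at -0.31 with BMP-on (edgeR adjusted p = 0.00564).

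Of 9 inhibitory kinases and CDK inhibitor proteins 7 were tested, and *CDKN2A* and *CDKN2B*, both untested, had 0 counts in every library. Of the 7, 2 were higher and 0 lower in the WT response, and 2 were higher and 1 lower both in the KO response and between KO and WT cells with BMP-on. *CDKN1A*, which encodes the CDK inhibitor p21, was at 41.6 ± 2.78 CPM in WT BMP-off, 94.5 ± 9.05 in WT BMP-on, 45.2 ± 2.54 in KO BMP-off and 173 ± 11.3 in KO BMP-on (SD, n = 3). Its log2 fold change was 1.18 in the WT response (edgeR adjusted p = 7.17e-08), 1.94 in the KO response (4.5e-11) and 0.87 in KO against WT with BMP-on (4.31e-06), and its response differed between KO and WT cells by 0.75 (0.00843). *CDKN2C*, which encodes the CDK4 and CDK6 inhibitor p18, was at 0.44, 0.69 and 0.37 in the same 3 comparisons, each past the test (edgeR adjusted p = 0.000211, 3.9e-07 and 0.00123). The medians of this list were 0.02, -0.11 and -0.03, and its higher genes were 28.6% of the 7 in each comparison, against 1.91%, 11.1% and 1.32% of all genes. Its lower genes were 0%, 14.3% and 14.3% of the 7, against 2.01%, 10.9% and 2.34% of all genes.

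Of 15 genes of cyclin destruction, 1 was lower in the WT response, 5 in the KO response and 3 in KO against WT with BMP-on, with 0 higher and medians of -0.02, -0.09 and -0.10. The lower genes were 6.67%, 33.3% and 20.0% of the list, against 2.01%, 10.9% and 2.34% of all genes, while 1.91%, 11.1% and 1.32% of all genes were higher. *UBE2C*, the ubiquitin-conjugating enzyme of the anaphase-promoting complex, changed by -0.23, -0.52 and -0.39 (edgeR adjusted p = 0.00329, 3.82e-07 and 9.01e-05). *CDC20*, an activator of that complex, changed by -0.29 in the KO response (edgeR adjusted p = 0.00206) and -0.34 between KO and WT cells with BMP-on (0.00262).

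Of 23 genes of cyclin gene transcription, 0 passed in the WT response, 3 were higher and 8 lower in the KO response, and 1 was higher and 4 lower in KO against WT with BMP-on, with medians of 0.00, -0.05 and -0.04. At an unadjusted p under 0.05, edgeR had 0 higher and 3 lower in the WT response, where all genes gave 7.0% and 8.33%. In the KO response 13.0% of the list was higher and 34.8% lower, against 11.1% and 10.9% of all genes, and between KO and WT cells with BMP-on 4.35% and 17.4%, against 1.32% and 2.34%. *FOXM1*, an activator of late cell cycle genes, changed by -0.38 in the KO response (edgeR adjusted p = 5.14e-05) and -0.34 in KO against WT with BMP-on (0.00113). *E2F8*, a repressor of the E2F family, changed by -0.69 and -0.38 (edgeR adjusted p = 2.34e-06 and 0.00346).

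Of 18 cyclins outside the core cell cycle set, 0 passed in the WT response or in KO against WT with BMP-on, and 1 was higher and 2 were lower in the KO response, with medians of -0.05, -0.02 and -0.07. The KO response counts are 5.56% and 11.1% of the list, against 11.1% and 10.9% of all genes. At an unadjusted p under 0.05, edgeR had 0 of them higher and 3 lower both in the WT response (7.0% and 8.33% of all genes) and between KO and WT cells with BMP-on (6.17% and 7.63% of all genes). *CCNYL1* was among those lower in the KO response (-0.31, edgeR adjusted p = 0.000405), and *CCNF*, which encodes an F-box protein that targets proteins for destruction, was at -0.25 there (0.0849). With BMP-off, 0 of the 74 tested genes of these 5 lists passed between KO and WT cells, and edgeR had 4 higher and 3 lower at an unadjusted p under 0.05, where all genes gave 4.62% and 5.59%. In the interaction, *CDKN1A* alone of the 5 lists passed. At an unadjusted p under 0.05, edgeR had 5 of the 74 higher and 15 lower in the interaction, where all genes gave 4.65% and 5.91%.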

How the data were processed

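The authors removed ribosomal reads, used GSNAP to align single-end reads of 50 bases to GRCh38, and counted them on RefSeq exons with HTSeqGenie. The deposited counts are whole numbers without normalization for 58302 identifiers. The deposited RPKM values were normalized by the authors and served to compare levels between genes. GENCODE v44 gave symbols for 57532 identifiers. The labels name 2 library kits, a stranded and an unstranded one, and the kit used is not given in the sources used here.

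All 12 libraries entered 1 robust quasi-likelihood model in edgeR 4.0.16 (R 4.3.3) with TMM scaling and its default filter, leaving 17188 genes, with Benjamini-Hochberg adjustment per comparison. Alternatives were limma-voom after quantile normalization (limma 3.58.1), DESeq2 1.42.0, its size factors in edgeR, no filter, a replicate block, a GC correction (loess, span 0.4), only the groups compared, and each library left out. Groups came from the labels, and 0 sample columns were left out. Besides the 9 cyclins, genes named are *MIB1*, *CDK1*, *CDK2*, *CDK4*, *CDK6*, *CDKN1A*, the 2 of each list with the smallest p in KO against WT with BMP-on, overlapping genes, markers and, per cyclin, the 3 best correlated genes. Members and lists were chosen with earlier results of these data known. Protein sequences were not used here.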

Additional observations from a re-analysis of the deposited data

How the results depend on the processing

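The KO response of *CCND1*, *CCNE2*, *CCNA1*, *CCNA2*, *CCNB1* and *CCNB2*, and KO against WT with BMP-on of *CCNA2*, *CCNB1* and *CCNB2*, kept their direction and passed under all 19 alternatives. The cause of the changes below was not tested. Genes passing in the WT response numbered 674, and 1047 without a filter and 1540 with the GC correction. With BMP-on they numbered 630, and 1270 with the GC correction and 1237 with only the groups compared. With BMP-off they numbered 7, and 35 in DESeq2, 233 without a filter, 96 with the GC correction and 3 with only the groups compared. In the interaction they numbered 16, and 154 in DESeq2, 318 without a filter, 236 with the GC correction and 3 with a replicate block.

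Cyclins lower in the WT response numbered 1 with a replicate block. With BMP-off, 1 was lower without a filter (*CCNA1*, edgeR adjusted p = 0.0314) and 1 with the GC correction (*CCNB1*). In the interaction, 1 (*CCNA2*) was lower in DESeq2, without a filter and with the GC correction. Same-numbered libraries had a residual correlation above 0.1 in 2 of 18 pairs. The GC trends of single libraries enter these values, so they cannot exclude a pairing. The replicate block changed no other cyclin count.

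Leaving out 1 library gave 366 (without WT BMP-on replicate 1) to 1118 (without KO BMP-off replicate 2) genes in the WT response, with 0 to 1 cyclins higher and 1 to 4 lower, 4 being reached without KO BMP-off replicate 2 or 3. It gave 2314 (without KO BMP-on replicate 1) to 5323 genes in the KO response. With BMP-on it gave 326 (without WT BMP-on replicate 3) to 862 genes and 3 to 4 cyclins lower, and with BMP-off 2 (without WT BMP-off replicate 2) to 50 (without KO BMP-off replicate 3) genes. In the interaction it gave 4 (without WT BMP-on replicate 2 or KO BMP-on replicate 3) to 236 (without WT BMP-off replicate 1) genes and 0 to 2 cyclins lower, 2 being reached without KO BMP-off replicate 3.

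Signs turned only for log2 fold changes near 0 that did not pass. Over the libraries left out in turn, *CCND3* ranged from -0.07 to 0.05 in the WT response, -0.11 to 0.01 in the KO response, -0.09 to 0.04 with BMP-off and -0.09 to 0.04 in the interaction, and *CCNA2* with BMP-off from -0.03 to 0.06. In the interaction *CCND1* ranged from -0.05 to 0.04 and *CCNE1* from -0.01 to 0.11. With the GC correction, *CCND3* with BMP-off turned to 0.03, *CCNA2* with BMP-off to -0.03 and *CCND1* in the interaction to -0.01. *CCNA2* with BMP-off turned to -0.01 in limma-voom, and *CCND1* in the interaction to 0.00 without a filter. At this depth *CCND2* could not be tested, and *CCNA1* rested on 36 to 159 counts per library.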
